A study of Mus musculus with 6 samples.

Results

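The genes described here are 10 genes of antigen presentation: H2-D1, H2-K1, B2m, Tap2 and Tapbp of the class I pathway, and Cd74, H2-Aa, H2-Ab1, H2-Eb1 and Ciita of the class II pathway. They were chosen by name, through the transcript accession printed for each array probe, and make up 10 of the 23462 named genes on the array. Of their 17 probes, 15 were well above background on all 6 arrays and were tested, so that each of the 10 genes had at least 1 tested probe. On no array was a second probe of Tap2 well above background, and a second probe of Ciita was so on 1 array of each group.

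Microglia were compared between PGC-1αf/f mice (n = 3 arrays) and mPGC-1α mice (n = 3 arrays), labelled male and 10 weeks of age, without stroke. Both groups carry a transgene for PGC-1α and eGFP that loxP sites keep silent, on a C57BL/6 background. In mPGC-1α mice, a tamoxifen-inducible Cre enzyme driven from the Cx3cr1 locus releases the transgene, while PGC-1αf/f controls were littermates without Cre. Tamoxifen dosing was followed by an interval intended to leave expression in microglia and not in macrophages. Cells were selected through the surface receptor P2RY12 with magnetic beads. The labels do not say whether each array held 1 mouse or a pool, so p-values measure only the spread between these samples.

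MHC class I molecules consist of a heavy chain, such as the products of H2-K1 and H2-D1, and the light chain β2-microglobulin, encoded by B2m. They show peptides from inside the cell to CD8+ T cells, after TAP1 and TAP2 have carried the peptides into the endoplasmic reticulum and tapasin, encoded by Tapbp, has helped to load them. MHC class II molecules pair an α chain (H2-Aa) with a β chain (H2-Ab1), and H2-Eb1 encodes a further β chain. The invariant chain, encoded by Cd74, guards their groove until they reach endosomes, where they take up peptides for CD4+ T cells. Ciita encodes the master transactivator of class II genes, and in resting brain microglia class II expression is known to be low.

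The sequences before the start sites of 5 of these genes are shown because class I and class II promoters differ in the elements that interferon and NF-κB pathways or the class II transactivator use. They are RefSeq sequences of the build GRCm38.p6, each covering the 250 bases before an annotated start site on the strand of the gene. Capitals mark matches on either strand to GAAANNGAA or GAANNGAAA (2 arrangements of the core of interferon response elements, which can overlap), TTCNNNGAA (the core of a gamma-activated sequence), GGGATTCCC (a κB site) and CTGATTGG (the Y box of class II promoters, which holds an inverted CCAAT sequence).

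H2-K1 (chr17:34000334-34000583, minus strand): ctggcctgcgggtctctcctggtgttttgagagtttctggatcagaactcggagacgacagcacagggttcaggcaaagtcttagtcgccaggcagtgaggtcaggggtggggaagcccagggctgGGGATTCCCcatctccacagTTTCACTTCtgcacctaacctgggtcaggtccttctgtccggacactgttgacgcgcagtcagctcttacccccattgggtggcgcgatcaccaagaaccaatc
H2-D1 (chr17:35262844-35263093, plus strand): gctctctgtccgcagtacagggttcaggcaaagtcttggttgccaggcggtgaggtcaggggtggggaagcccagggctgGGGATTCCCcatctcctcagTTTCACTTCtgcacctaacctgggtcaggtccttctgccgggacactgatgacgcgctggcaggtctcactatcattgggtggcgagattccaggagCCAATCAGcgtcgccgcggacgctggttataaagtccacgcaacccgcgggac
B2m (chr2:122147437-122147686, plus strand): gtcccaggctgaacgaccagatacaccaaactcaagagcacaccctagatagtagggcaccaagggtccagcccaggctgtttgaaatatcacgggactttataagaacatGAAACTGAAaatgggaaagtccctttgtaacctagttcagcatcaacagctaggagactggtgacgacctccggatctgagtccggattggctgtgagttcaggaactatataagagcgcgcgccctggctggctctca
H2-Aa (chr17:34287824-34288073, minus strand): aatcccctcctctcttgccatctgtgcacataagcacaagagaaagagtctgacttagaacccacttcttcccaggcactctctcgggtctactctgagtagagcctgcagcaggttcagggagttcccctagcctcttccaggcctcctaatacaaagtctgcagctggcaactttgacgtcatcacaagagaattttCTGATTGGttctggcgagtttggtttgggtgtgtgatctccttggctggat
H2-Eb1 (chr17:34305617-34305866, plus strand): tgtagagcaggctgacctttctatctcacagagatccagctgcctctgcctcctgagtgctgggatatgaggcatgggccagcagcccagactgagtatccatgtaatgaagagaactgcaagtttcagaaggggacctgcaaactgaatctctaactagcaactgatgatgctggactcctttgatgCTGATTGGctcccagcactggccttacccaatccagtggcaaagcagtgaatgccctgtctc

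In both heavy chain genes, the κB sequence GGGATTCCC stood a short distance before TTTCACTTC, the reverse complement of an interferon core. It began at position -124 in H2-K1 and -170 in H2-D1, counted back from the start site. This κB sequence was in 0.301% of all 32851 windows of the same length, and the arrangement GAANNGAAA was in 6.31%. The promoter of B2m held the other interferon core as GAAACTGAA at position -139, an arrangement found in 7.13% of windows. Both class II promoters held the Y box CTGATTGG, at position -51 in H2-Aa and -62 in H2-Eb1, and H2-D1 held its reverse complement at -53. The Y box was in 3.83% of windows. None of these windows held TTCNNNGAA, which was in 7.02% of all windows. H2-K1 has a second annotated start site, whose window overlaps the one shown. The window of Tapbp held none of the 5 sequences.

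Depth and quality were examined before the comparison. Between 27025 and 30272 of 59305 spots were well above background on each array, and the 75th percentile of the signal, to which each array was scaled, ranged from 1012 to 2138. All 10 microglial marker genes on the list used were well above background on all 6 arrays. The differences of 10 of the 10 were below 0, with a median of -0.29 on the log2 scale, while 53.5% of all genes were above 0. None passed an adjusted p of 0.05 in limma, and 1 of the 10 had an unadjusted p under 0.05 and was lower, close to the 9.21% of all probes. That 1 was Cx3cr1, whose locus carries the Cre. It differed by -0.51 (SE 0.14, limma adjusted p = 0.194) with groups that did not overlap, as did 13.7% of all probes in this direction. The array of PGC-1αf/f replicate 3 stood apart, with a mean correlation with the other arrays of 0.928 over 22997 probes, against 0.967 for the least similar pair among the other 5. On the array of mPGC-1α replicate 3, none of 4 Y-linked genes (Ddx3y, Eif2s3y, Kdm5d and Uty) was well above background, although the sample is labelled male. Xist, a female transcript, was well above background on this array and on those of mPGC-1α replicate 2 and PGC-1αf/f replicate 2, and both replicates 2 also gave Y-linked signal. The targeted gene Ppargc1a was higher by 0.80 on the log2 scale in mPGC-1α microglia (SE 0.35, limma adjusted p = 0.306), with groups that overlapped. A second probe differed by 0.59 (SE 0.38, limma adjusted p = 0.445), and without PGC-1αf/f replicate 3 the first differed by 0.44 (SE 0.24). All arrays lay on 1 slide, the PGC-1αf/f arrays in one row and the mPGC-1α arrays in the other, so slide row and group cannot be told apart.

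To determine whether PGC-1α overexpression was accompanied by a change in antigen presentation genes, each gene was compared between the groups. None of the 10 genes passed an adjusted p of 0.05 in limma, while 20 of all 25257 probes did, or 0.0792%. Without adjustment, 0 of the 10 genes had a p under 0.05 and were higher in mPGC-1α microglia, against 7.53% of all probes, and 0 had such a p and were lower, against 9.21%. For H2-D1 and B2m this test had 1 usable mPGC-1α value each, whose spread is assumed to be that of the other group, so the count rests on 8 genes with more values. On this scale the differences between group means ran from -0.11 for H2-Aa to 0.58 for H2-D1, and 8 were above 0 and 2 below. This split was 4 above and 6 below when arrays were scaled to their median, and again when PGC-1αf/f replicate 3 was left out. Their median was 0.088, beside 0.025 over the representative probes of 12932 genes, of which 53.5% were above 0. Among the 7 genes with a value on all 6 arrays, the groups overlapped in each. Over all probes with 6 values, 11.4% did not overlap with mPGC-1α higher and 13.7% did not overlap with mPGC-1α lower.

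**Figure D1:**
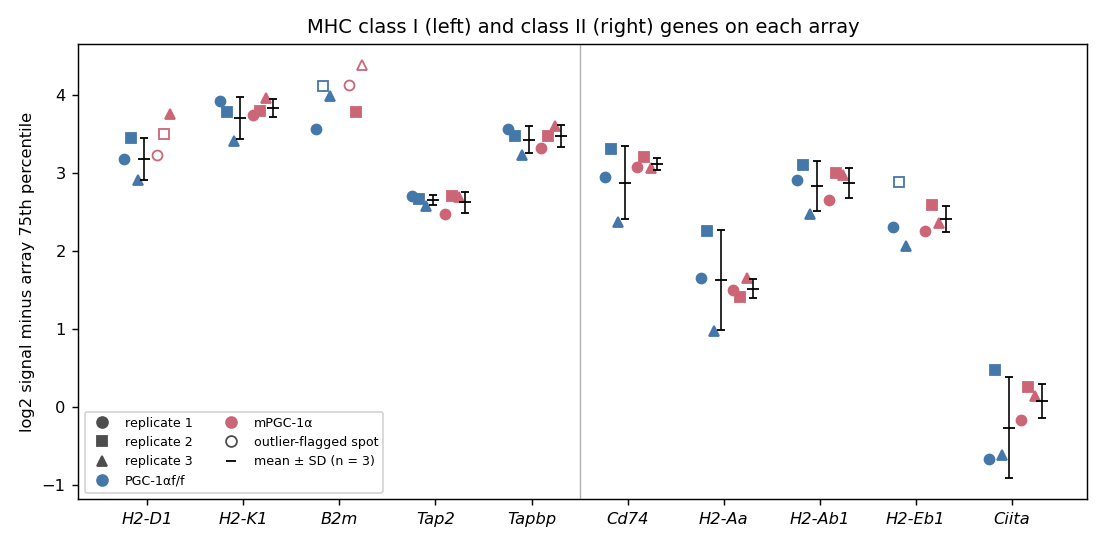
Signal of the representative probe of each of the 10 genes on each array, as log2 signal relative to that array's 75th percentile (y axis), for PGC-1αf/f (blue) and mPGC-1α (red) replicates 1, 2 and 3. Open symbols are spots the scanner software had marked as outliers, which were left out of the tests, and bars give mean ± SD where all 3 values were used. Levels of different probes cannot be set against each other. The groups overlap in each gene with 6 values, and the PGC-1αf/f points of the class II genes Cd74, H2-Aa and Ciita are spread more widely than the mPGC-1α points.

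The class I heavy chains were examined first. H2-D1 (probe A_65_P19395) read 3.18, 3.44 and 2.91 in PGC-1αf/f replicates 1, 2 and 3. In mPGC-1α microglia only replicate 3 gave a usable value, 3.76, because the spots of replicates 1 and 2 were marked as outliers for uneven signal. That value was above all 3 controls. The fit, which drops those 2 arrays, gave a difference of 0.58 (SE 0.27, 95% interval -0.13 to 1.28, limma adjusted p = 0.359). The marked spots read 3.23 and 3.49, inside or just above the range of the controls, and with them the difference was 0.31. The only usable mPGC-1α value is from the array that lacked Y-linked signal well above background, and without it the difference could not be fitted.

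For H2-K1 (probe A_51_P198434), the levels were 3.92, 3.78 and 3.40 in PGC-1αf/f and 3.74, 3.80 and 3.96 in mPGC-1α microglia. The means were 3.70 ± 0.27 and 3.83 ± 0.12 (SD, n = 3 each). PGC-1αf/f replicate 3 was the lowest array and the groups overlapped. The difference of 0.13 (SE 0.17, interval -0.28 to 0.54, adjusted p = 0.716, limma) was smaller than the SD of the controls. A second H2-K1 probe (A_55_P2049647), with 5 values, differed by 0.091 (SE 0.15, limma adjusted p = 0.781). The mouse class I heavy chains are close paralogs and the probe sequences were not used here, so signal shared between them was not tested.

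B2m, the light chain that all classical class I molecules need, had usable values on 3 arrays only. They were 3.56 and 3.99 in PGC-1αf/f replicates 1 and 3 and 3.78 in mPGC-1α replicate 2, which lay between them. The difference was 0.0047 with a wide interval (SE 0.29, -0.82 to 0.83, limma adjusted p = 0.995). Marked spots included, the values were 3.56, 4.11 and 3.99 in PGC-1αf/f and 4.12, 3.78 and 4.39 in mPGC-1α microglia, and the groups overlapped.

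The peptide transport and loading genes varied little between arrays. Tap2 (probe A_55_P2017645) read 2.70, 2.66 and 2.58 in PGC-1αf/f and 2.47, 2.70 and 2.69 in mPGC-1α microglia. The groups overlapped, and the difference was -0.026 (SE 0.13, interval -0.34 to 0.29, limma adjusted p = 0.935). Tapbp (probe A_51_P304500) gave 3.56, 3.47 and 3.23 in PGC-1αf/f and 3.32, 3.48 and 3.61 in mPGC-1α microglia. The ranges again overlapped, with a difference of 0.045 (SE 0.15, interval -0.31 to 0.40, limma adjusted p = 0.898). The second Tapbp probe (A_52_P684830) differed by 0.035.

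Next, the class II genes were compared. Cd74 (probe A_51_P284608) read 2.95, 3.31 and 2.37 in PGC-1αf/f and 3.07, 3.21 and 3.07 in mPGC-1α microglia. The PGC-1αf/f values, with a mean of 2.87 ± 0.47 (SD, n = 3), enclosed all 3 mPGC-1α values, with a mean of 3.11 ± 0.079 (SD, n = 3). The difference was 0.24 (SE 0.24, interval -0.33 to 0.81, limma adjusted p = 0.626), and without PGC-1αf/f replicate 3 it was -0.013.

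H2-Aa (probe A_52_P343306), the α chain, read 1.65, 2.25 and 0.97 in PGC-1αf/f and 1.49, 1.41 and 1.65 in mPGC-1α microglia. The 3 mPGC-1α arrays lay inside the control range, with group means of 1.62 ± 0.64 and 1.51 ± 0.12 (SD, n = 3 each). The difference of -0.11 (SE 0.31, interval -0.84 to 0.62, limma adjusted p = 0.876) depended on which control was in the fit. It was -0.43 (SE 0.21) without PGC-1αf/f replicate 3 and 0.20 (SE 0.24) without PGC-1αf/f replicate 2, and neither passed the threshold. With array weights it was -0.61 (SE 0.23, unadjusted p = 0.033, limma).

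H2-Ab1, the β chain partner of H2-Aa, was measured by 4 probes. The representative probe (A_55_P1962747) read 2.91, 3.10 and 2.48 in PGC-1αf/f and 2.65, 2.99 and 2.97 in mPGC-1α microglia. The controls again held both the highest and the lowest array, and the groups differed by 0.038 (SE 0.20, interval -0.44 to 0.51, limma adjusted p = 0.936). Further probes with 6 values differed by 0.093 (A_55_P2146560) and 0.12 (A_52_P683598). The last (A_55_P2741874) differed by 0.51 (SE 0.24, limma adjusted p = 0.343), but lacked PGC-1αf/f replicate 2, whose marked spot read 2.68, higher than the 1.79 and 1.09 of the other controls and the 1.84 to 2.06 of the mPGC-1α arrays. The probes of this gene therefore disagreed in size where that array was dropped.

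The same array was missing for H2-Eb1 (probe A_55_P2156731), which read 2.31 and 2.06 in PGC-1αf/f replicates 1 and 3 and 2.26, 2.59 and 2.36 in mPGC-1α microglia. The difference was 0.22 (SE 0.18, interval -0.21 to 0.66, limma adjusted p = 0.546). The marked spot of PGC-1αf/f replicate 2 read 2.88, above the 5 other arrays, and with it the difference was -0.012.

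Ciita (probe A_66_P119948) read -0.66, 0.48 and -0.62 in PGC-1αf/f and -0.17, 0.25 and 0.14 in mPGC-1α microglia. PGC-1αf/f replicate 2 was the highest array and the other 2 controls were the lowest, so the groups overlapped. The means were -0.27 ± 0.65 and 0.075 ± 0.22 (SD, n = 3 each). The difference was 0.34 (SE 0.32, interval -0.42 to 1.10, limma adjusted p = 0.601), and it ranged from 0.15 to 0.72 on leaving out each array in turn, with the highest value without PGC-1αf/f replicate 2.

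Slide columns 1 and 2 each held an array of both groups, which allows the difference to be read within a column. In column 1, Cd74 and Ciita were higher in mPGC-1α by 0.12 and 0.49, while H2-K1 (-0.18), Tap2 (-0.23), Tapbp (-0.24), H2-Aa (-0.16), H2-Ab1 (-0.26) and H2-Eb1 (-0.046) were lower. In column 2, H2-K1 (0.015), Tap2 (0.043) and Tapbp (0.0044) were close to 0, and Cd74 (-0.10), H2-Aa (-0.84), H2-Ab1 (-0.11) and Ciita (-0.23) were below 0. H2-D1 and B2m gave no value in either column and H2-Eb1 none in column 2. Only H2-Aa and H2-Ab1 were below 0 in both columns, and no gene was above 0 in both.

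The class II genes varied together among the PGC-1αf/f arrays. Of the 6 class II probes with values on all 6 arrays, which come from 4 genes and include 3 probes of H2-Ab1, PGC-1αf/f replicate 2 was the highest of the 6 arrays in 6. PGC-1αf/f replicate 3 was the lowest of the 6 arrays in 5. Both held for 5 of the 6 probes, or 83.3%, and for 1.02% of all 22997 tested probes with 6 values. The median SD of the 6 probes was 0.55 in PGC-1αf/f and 0.11 in mPGC-1α microglia, whereas over all probes these medians were 0.21 and 0.18. The SD was larger in PGC-1αf/f for 6 of the 6 probes and for 58.7% of all probes. The 4 class I probes with 6 values had median SDs of 0.12 and 0.14. PGC-1αf/f replicate 2 was the highest of the 6 arrays in 0 of them, while PGC-1αf/f replicate 3 was the lowest of the 6 in 2, beside 29.8% of all probes. Replicate 2, the highest control for class II, is 1 of the 3 arrays with Xist signal, whose part was not tested. These counts were made after the values had been seen and are given without a test.

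**Figure D2:**
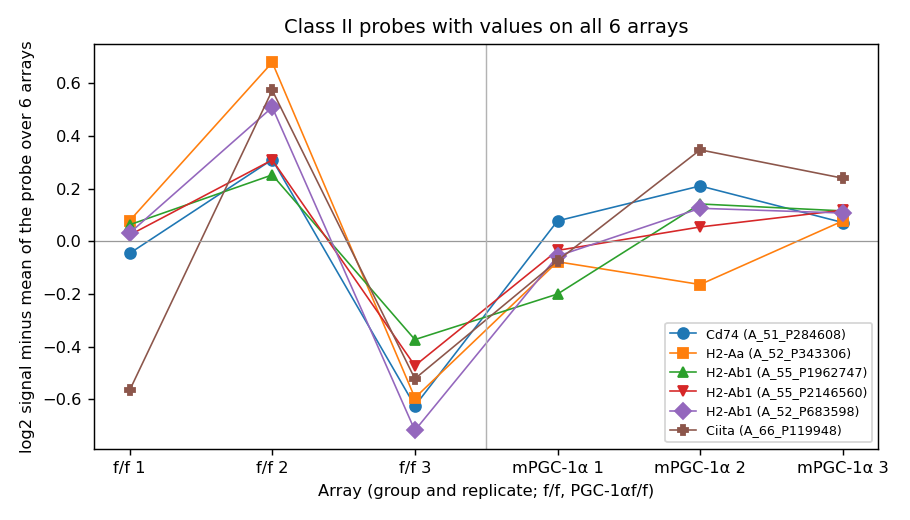
Deviation of each class II probe with 6 values from its own mean over the 6 arrays (y axis, log2), for PGC-1αf/f replicates 1 to 3 (left of the line) and mPGC-1α replicates 1 to 3 (right). The 6 probes share a high value on PGC-1αf/f replicate 2, and 5 of them have their lowest value on PGC-1αf/f replicate 3, while the mPGC-1α arrays lie closer together.

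Markers of other cells differed on the same arrays. The summed linear level of 7 neutrophil markers, each relative to the array's 75th percentile, was 95.3, 112 and 13.6 in PGC-1αf/f and 114 to 134 in mPGC-1α microglia, and 7 of the 7 were well above background on all arrays. For 4 monocyte markers the sums were 27.0, 35.3 and 6.06 in PGC-1αf/f and 36.0 to 42.1 in mPGC-1α microglia. The 6 T and NK cell markers gave 3.06, 5.41 and 1.14 in PGC-1αf/f and 3.95 to 7.31 in mPGC-1α microglia. The 6 endothelial markers, of which 3 were well above background on all arrays, gave 1.97, 2.19 and 0.55 in PGC-1αf/f and 1.08 to 3.72 in mPGC-1α microglia. These 4 lists, like the class II genes, were highest on replicate 2 and lowest on replicate 3 among the controls. Unlike the class II genes, the neutrophil and monocyte sums of all 3 mPGC-1α arrays lay above all 3 controls. The 5 oligodendrocyte markers went the other way, with sums of 13.5 to 15.7 in PGC-1αf/f and 8.84 to 11.2 in mPGC-1α microglia. Of the 5, Mog was well above background on the PGC-1αf/f arrays alone and so entered the test only through the group in which it was higher. The brightest probes of the other 4 were lower in mPGC-1α microglia, and none passed the adjusted threshold in limma (lowest 0.171). A further pair of Mbp probes differed by 0.21 and 0.15. The part of these cells in the MHC values was not tested. In such bulk samples, fewer cells of a type and less RNA per cell cannot be told apart.

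Cells that carry much class II were examined through their own markers. The defining B cell markers Cd79a and Pax5 were on no array well above background, and Ms4a1 was so on 2 mPGC-1α arrays. Cd79b, which was, made up most of the B cell sum of 4.36 to 5.13 in PGC-1αf/f and 3.11 to 4.97 in mPGC-1α microglia. The dendritic cell markers Clec9a, Xcr1 and Zbtb46 were likewise on no array well above it. Flt3 and Cd209a were well above it on all 6 arrays and differed by 0.28 and -0.20. Ccr7, a homing receptor of mature dendritic cells and lymphocytes, was well above it on 3 mPGC-1α arrays and 1 PGC-1αf/f array. It read -3.73, -3.09 and -5.25 in PGC-1αf/f and -2.88, -2.46 and -2.47 in mPGC-1α microglia, and no size of difference is given, since it entered the test through the group in which it was higher. The sum of the 6 markers was 0.78, 0.64 and 0.49 in PGC-1αf/f and 0.70 to 0.80 in mPGC-1α microglia. For 7 border macrophage markers, the sum was 11.5, 9.21 and 9.90 in PGC-1αf/f and 10.7 to 17.5 in mPGC-1α microglia. The part of these cells in the class II levels was not tested.

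The genes whose pattern over the 6 arrays was most like that of class II were ranked by Pearson r with the mean of Cd74, H2-Aa and H2-Ab1, among 12293 genes with 6 values. That mean was 2.50, 2.89 and 1.94 in PGC-1αf/f and 2.40, 2.53 and 2.56 in mPGC-1α microglia. The highest were Rxrg, a retinoid X receptor (r = 0.999), C1ra, a protease of the classical complement pathway (0.983), Fam47e (0.976), Tlr11, a receptor for microbial profilin (0.969), and Iigp1, an interferon-inducible GTPase (0.964). Iigp1 read -0.80, -0.42 and -2.12 in PGC-1αf/f and -1.17, -0.69 and -0.68 in mPGC-1α microglia. The ranking for class I used H2-K1 alone, since H2-D1 lacked 2 values, and gave Tpm2 (r = 0.991), H2ac10 (0.991), Ly6d (0.990), Scarna13 (0.988) and Hsp90ab1 (0.983). On PGC-1αf/f replicate 3, Rxrg read -3.96, Fam47e -4.06 and Ly6d -4.04, near -4.17, the lowest level well above background on that array. The low points of these genes are therefore dim. With 6 points that share the differences of these arrays, r is a description.

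Moreover, the other genes of the presentation pathway were examined through 6 lists. Of 56 listed genes, 54 had a probe and 50 were tested. None of the 50 passed an adjusted p of 0.05 in limma. At an unadjusted p under 0.05, 2 were higher (Nlrc5 and Ifi30) and 3 were lower (H2-Oa, H2-Ob and Nfya), or 2 and 3 of 50 beside 7.53% and 9.21% of all probes, so neither share was above that of all probes. Of the 46 with 6 values, 2 did not overlap with mPGC-1α higher and 5 did not overlap with mPGC-1α lower, beside the 11.4% and 13.7% of all probes. The median difference of the 50 genes was 0.073.

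**Figure D3:**
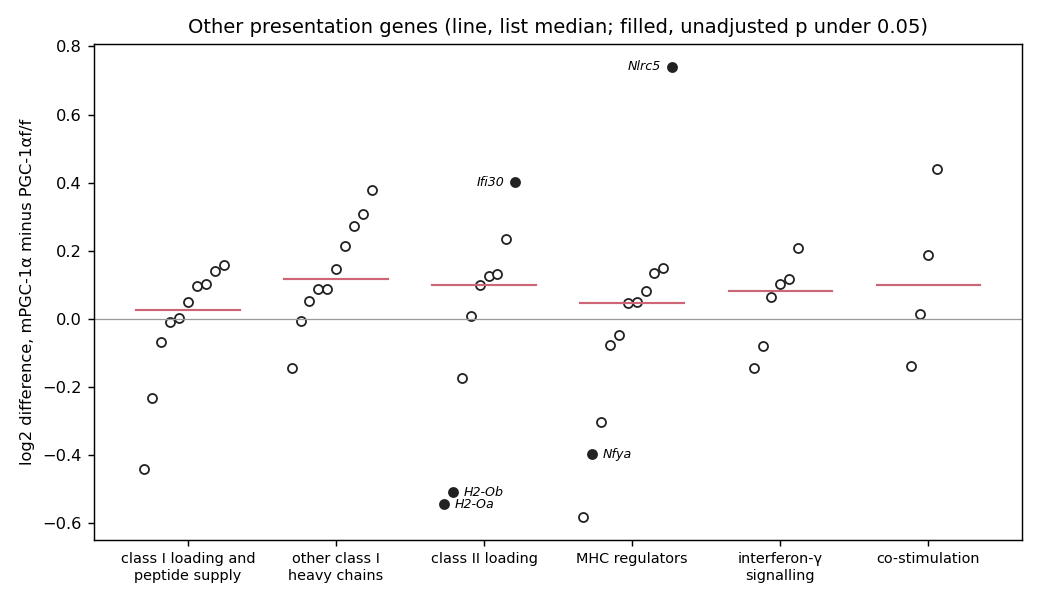
Log2 difference between group means (y axis, mPGC-1α minus PGC-1αf/f, limma) of each tested gene of the 6 pathway lists, with the list median as a red line. Filled points have an unadjusted p under 0.05. The list medians lie between 0.026 and 0.12, and the 5 filled genes are Nlrc5 and Ifi30 above 0 and H2-Oa, H2-Ob and Nfya below 0.

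Genes that supply and load class I peptides lay near 0, with a median of 0.026 over 10 tested genes and 6 above 0. The immunoproteasome subunits, which trim proteins into class I peptides, differed by 0.16 (Psmb10), 0.048 (Psmb8) and -0.0081 (Psmb9), and Psme1, a proteasome activator, by 0.14. Without mPGC-1α replicate 3, Psmb10 was -0.048, Psmb8 -0.066, Psmb9 -0.029 and Psme1 0.061. Without both replicates 3, Psmb10 was 0.024, Psmb8 -0.18, Psmb9 -0.045 and Psme1 0.00059. Tap1, the partner of Tap2, differed by 0.10 (SE 0.15, limma adjusted p = 0.744). The lowest were Erap1, which trims peptides in the endoplasmic reticulum (-0.44, SE 0.25, limma adjusted p = 0.392, groups not overlapping), and Tapbpl, a tapasin relative (-0.23). Among 10 other class I heavy chains the median was 0.12 and 8 were above 0. H2-T10 differed by 0.38 (SE 0.18, limma adjusted p = 0.343) and H2-Q2 by 0.27, with groups of H2-Q2 that did not overlap. Without PGC-1αf/f replicate 3 these were 0.23 for H2-T10 and 0.061 for H2-Q2, and the list median was 0.014. The list median was -0.016 with the median shift, 0.22 with probes averaged by gene and 0.25 without PGC-1αf/f replicate 2. Further probes of H2-Q10, at 0.26 and 0.95, and of H2-Q7, at 0.29, were above the representative ones, at 0.15 and 0.21. Of the list, the lowest genes were H2-M3 at -0.14 and H2-Q4 at -0.0062.

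The class II loading genes gave differences in both directions. H2-Oa and H2-Ob encode the chains of H2-O, an inhibitor of the peptide editor H2-DM that is best known from B cells and thymus. H2-Oa read 1.51, 1.89 and 1.74 in PGC-1αf/f and 1.13, 1.21 and 1.17 in mPGC-1α microglia. All mPGC-1α arrays lay below all controls, with a difference of -0.54 (SE 0.14, unadjusted p = 0.0069, adjusted p = 0.179, limma). H2-Ob read 0.19, 0.44 and 0.13 in PGC-1αf/f and -0.66, -0.18 and 0.067 in mPGC-1α microglia. These groups did not overlap either, and the difference was -0.51 (SE 0.21, limma adjusted p = 0.295), while a second probe differed by -0.38 (SE 0.14, limma adjusted p = 0.265). Without both replicates 3 the differences were -0.53 for H2-Oa and -0.73 for H2-Ob. Beside these, the B cell marker Cd79b differed by -0.30 (SE 0.19, limma adjusted p = 0.449), and its part in the difference was not tested.

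Of the peptide editor itself, H2-DMb1 differed by -0.17 with groups that did not overlap (limma adjusted p = 0.487), H2-DMa by 0.13 and H2-DMb2 by 0.23. Without PGC-1αf/f replicate 3 the last 2 were 0.032 and 0.00051, and with array weights they turned to -0.14 and -0.051. H2-DMa was -0.038 without both replicates 3. Ifi30 encodes a lysosomal thiol reductase that unfolds proteins for class II loading. It read 3.35, 3.43 and 3.23 in PGC-1αf/f and 3.56, 3.77 and 3.89 in mPGC-1α microglia. The mPGC-1α arrays lay above the controls by 0.40 (SE 0.14, unadjusted p = 0.026, adjusted p = 0.254, limma), and by 0.28 without both replicates 3. The β chain gene H2-Eb2 was on no array well above background.

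Nlrc5, the transactivator of class I genes, read 0.0091, 0.66 and -0.50 in PGC-1αf/f and 0.65, 0.80 and 0.94 in mPGC-1α microglia. The groups overlapped slightly, and among the controls replicate 2 was again the highest and replicate 3 the lowest. Nlrc5 differed by 0.74 (SE 0.29, unadjusted p = 0.036, adjusted p = 0.275, limma). Leaving out PGC-1αf/f replicate 3 lowered this to 0.46 and its unadjusted p was 0.075. Among the factors that bind class II promoters, Rfx5 read -2.75, -2.33 and -2.32 in PGC-1αf/f and -2.66, -2.88 and -3.61 in mPGC-1α microglia, with overlapping groups. It was not well above background on mPGC-1α replicate 3, and without that array the difference was -0.30. Nfya, a subunit of the factor that binds CCAAT sequences such as the Y box, differed by -0.40 (SE 0.16, limma adjusted p = 0.294), with groups that did not overlap. Its partner Nfyc differed by 0.15.

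In the interferon-γ signalling list, Jak2 differed by 0.12, the inhibitor Socs1 by 0.10 and the receptor chain Ifngr2 by -0.081. Without PGC-1αf/f replicate 3, Socs1 turned to -0.031 and Ifngr2 to 0.020, while Jak2 was 0.25. Without both replicates 3, Socs1 was -0.23, Ifngr2 0.078 and Jak2 0.18. Ifng itself was well above background on 1 array. In the co-stimulation list, Cd274, the ligand of PD-1, differed by 0.44 (SE 0.30, limma adjusted p = 0.468) and by 0.13 without mPGC-1α replicate 3. By representative probe, Icosl differed by 0.19, Cd80 by 0.014 and Cd86 by -0.14. Further probes of Cd80 differed by -0.53 (A_52_P244005, SE 0.19, unadjusted p = 0.029, adjusted p = 0.259, limma) and by 0.031 (A_66_P130432). Those of Cd86 differed by 0.12 (A_51_P174723, with 5 values) and -0.30 (A_55_P1971951). The probes of Cd80 therefore disagreed in size, and those of Cd86 in direction. Cd40 was not tested.

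Interferon-stimulated genes outside antigen presentation were set beside the MHC genes. Of a list of 15 such genes, 13 had a tested probe, and 13 of the 13 were above 0, of which Iigp1 turned to -0.23 without PGC-1αf/f replicate 3. At an unadjusted p under 0.05, 12 of the 13 were higher, against 0 of the 10 MHC genes and the 7.53% of all probes, and 0 passed an adjusted p of 0.05 (lowest 0.0970, limma). Their median difference was 1.08, ranging from 0.27 for Iigp1 to 1.51 for Isg15, beside the median of 0.088 for the MHC genes. In 11 of the 13 the groups did not overlap, beside 11.4% of all probes with 6 values. Irf7, a transcription factor of the type I interferon response, read 1.23, 1.41 and 0.88 in PGC-1αf/f and 2.04, 2.33 and 2.39 in mPGC-1α microglia. The list was chosen with earlier results of these data known, and the difference between both lists was not tested. Without both replicates 3, the median was 0.83 with 10 of 13 at an unadjusted p under 0.05, and that of the 9 MHC genes that could be fitted was -0.083 with 0.

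**Figure D4:**
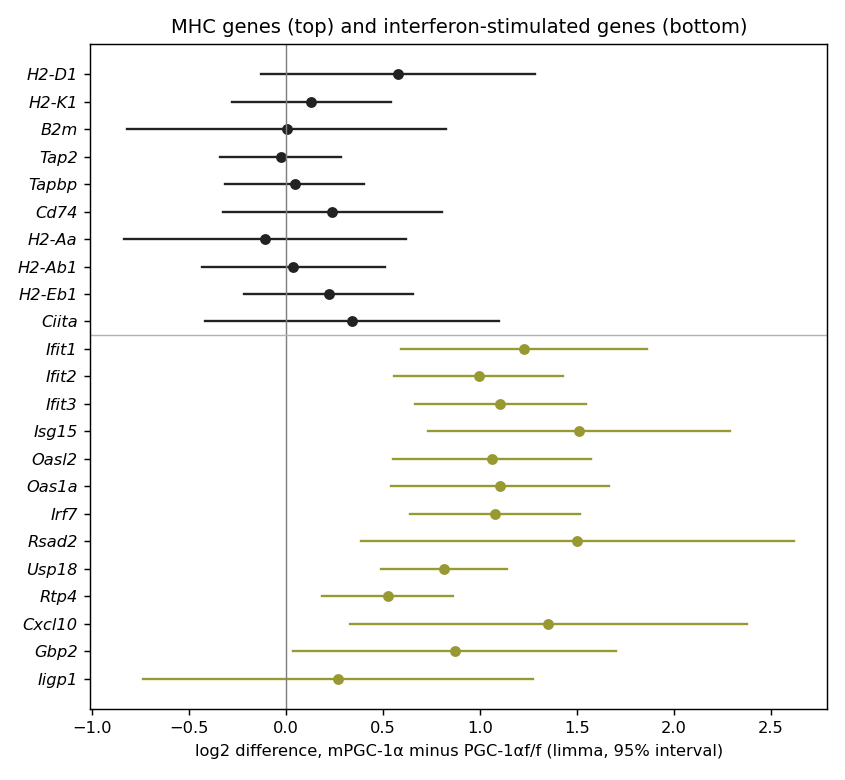
Log2 difference between group means (x axis, mPGC-1α minus PGC-1αf/f) with 95% intervals from limma, for the 10 MHC genes (black, top) and 13 interferon-stimulated genes (olive, bottom), by representative probe. The intervals of all 10 MHC genes include 0, and those of 12 interferon-stimulated genes lie above 0.

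Finally, most of these genes lie in the MHC on mouse chromosome 17. In RefSeq gene order the stretch from Tapbp to H2-D1 holds 132 genes, of which 70 were tested, 7 of them genes described here. Among the 63 others, 0 passed the adjusted threshold in limma, 5 had an unadjusted p under 0.05 and were higher, 2 had one and were lower, and their median difference was 0.078. These are shares close to the 7.53% and below the 9.21% of all probes. The 5 were Cfb, a component of the alternative complement pathway (2.41, SE 0.61), the heat shock genes Hspa1a and Hspa1b, the predicted gene Gm31560 (0.93, SE 0.31) and Tnf, the cytokine (1.03, SE 0.35). They were named after their values were seen, and the 2 lower genes were H2-Oa and H2-Ob. Without PGC-1αf/f replicate 3, Cfb was 1.73 and Gm31560 was 0.58, while Tnf was 1.24. Without both replicates 3, Cfb was 1.45, Gm31560 0.51 and Tnf 1.07. Hspa1a and Hspa1b are near-identical copies, so their signals may be shared. They were well above background on 3 mPGC-1α arrays but on only 2 and 1 PGC-1αf/f arrays, so both entered the test through the group in which they were higher.

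**Figure D5:**
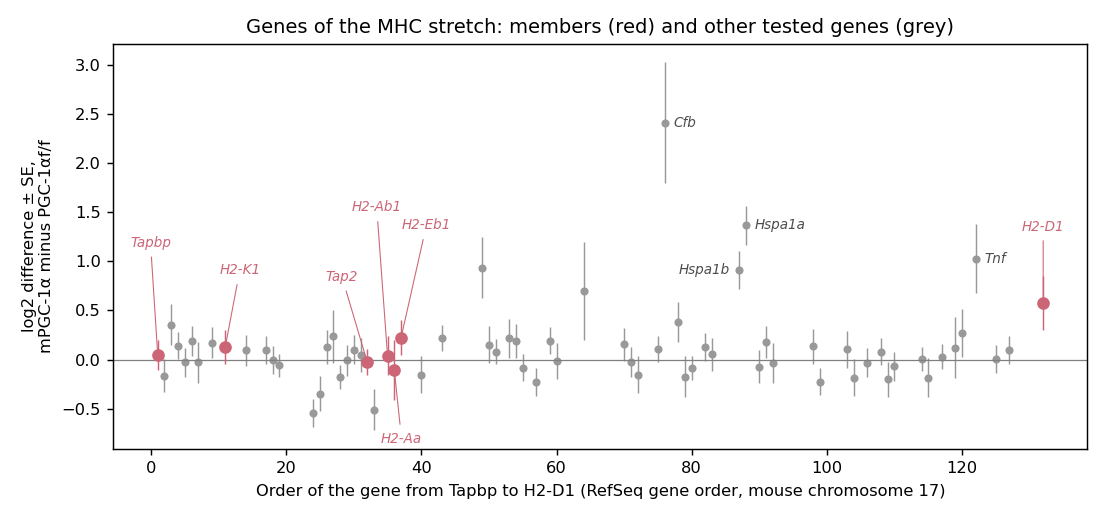
Log2 difference (y axis, mPGC-1α minus PGC-1αf/f, ± SE from limma) of the 70 tested genes in RefSeq order from Tapbp to H2-D1 on mouse chromosome 17 (x axis, position in the order). The 7 genes described here (red) lie between -0.11 and 0.58, and Cfb reaches 2.41, or 1.73 without PGC-1αf/f replicate 3.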

How the data were processed

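RNA of each sample was amplified, labelled with Cy5 and put on its own 1-colour Agilent mouse array. The authors deposited scanner files, in which Feature Extraction had subtracted background from each spot's intensity and removed spatial trends. GeneSpring is the software the methods name for normalization, without a per-gene test. A deposited matrix of intensity values for all arrays matched the scanner values within 0.497% and was not scaled between arrays.

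Control spots and spots marked as outliers were left out. Log2 intensity, with no pseudocount, was centred on the 75th percentile of the 59305 non-control spots of its array and averaged over spots of a probe. The test took the 25333 of 56605 probes that, in at least 0.5 of their spots, were well above background on every array of 1 or both groups. A p-value existed for 25257. Accessions were matched to a RefSeq table (GRCm38.p6, names and gene order only), which named 33767 probes of 23462 genes. A gene was represented by a probe with values on all 6 arrays, then by the highest mean signal. Groups and replicate numbers came from the labels. The number of arrays limits the precision.

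Two-sided tests used lmFit and eBayes of limma 3.58.1, with R 4.3.3 and the package data.table (1.17.8), and Benjamini-Hochberg adjustment over all tested probes and a threshold of 0.05. The fit was tested on simulated data. Python 3.11.15 drew the figures (matplotlib 3.10.9, numpy 2.4.6, pandas 2.3.3).

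All 10 genes were named. From each pathway list, genes past the threshold and the 2 highest and 2 lowest with 6 values were named, as were the 5 genes most alike in pattern to each class. Some genes of the lists are not reported here by name. Further genes named were chosen after their values were seen. The 10 genes, the lists and the tests were chosen with earlier results of these data known. Alternatives covered scaling, background correction, filters, the replicate block, array weights, the variance model, slide column, probe averaging and leaving out arrays.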

Additional observations from a re-analysis of the deposited data

How the results depend on the processing

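None of the 10 genes passed the adjusted threshold in any of the 19 alternatives, and at an unadjusted p under 0.05 the count was 0 or 1 in each. The 1 was H2-D1 with a trended, robust variance model, Ciita without PGC-1αf/f replicate 2 and H2-Aa, at -0.61, with array weights. Directions turned in several alternatives, and the cause was not tested. Quantile normalization gave -0.042 for B2m, -0.067 for Tapbp and -0.038 for H2-Ab1. A shift to the array median, which moved the median of all probes to -0.139, gave -0.00080 for H2-K1, -0.16 for B2m, -0.088 for Tapbp and -0.094 for H2-Ab1. Normexp gave -0.21 for B2m, -0.039 for Tapbp and -0.051 for H2-Ab1. Array weights gave -0.015 for Tapbp, -0.036 for Cd74, -0.14 for H2-Ab1 and -0.13 for Ciita, and a random block for slide column gave -0.021 for H2-Ab1. Without both replicates 3 together, H2-K1 was -0.083, Tapbp -0.12 and H2-Ab1 -0.19. Keeping the spots marked as outliers, an alternative chosen after seeing the data, gave -0.012 for H2-Eb1. Leaving out each array in turn gave ranges of -0.017 to 0.24 for H2-K1, -0.21 to 0.22 for B2m, -0.067 to 0.050 for Tap2, -0.050 to 0.12 for Tapbp, -0.013 to 0.46 for Cd74, -0.43 to 0.20 for H2-Aa and -0.14 to 0.17 for H2-Ab1. H2-D1 gave no fit without mPGC-1α replicate 3, with or without PGC-1αf/f replicate 3, nor did B2m without mPGC-1α replicate 2. H2-D1 ranged from 0.45 to 0.71, H2-Eb1 from 0.097 to 0.35 and Ciita from 0.15 to 0.72. The mPGC-1α value of H2-D1 was the same single array in each of these fits, so its direction says nothing about stability.

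The count of all probes past the threshold, 20, was 11 with quantile normalization, 11 with the median shift, 11 with normexp, 456 in the deposited values without scaling, 9 with no filter on dim probes, 4 with a filter on all 6 arrays, 1100 with array weights, 138 with a random block for slide column, 8 with probes averaged by gene and 3 without both replicates 3, and ranged from 0 to 25 on leaving out each array. It was 0 with the replicate number as a block (limma), where 2393 probes had an unadjusted p under 0.05 and were higher and 2304 had one and were lower. Deviations of samples sharing a number correlated at 0.139, 0.127 and 0.0187, and samples were therefore not treated as pairs. The replicate block changed no call among the 10 genes or the pathway lists. In the pathway lists, 1 gene, H2-Oa, passed with array weights (adjusted p = 0.032, against 0.179). List medians moved with the median shift to -0.11 for class I loading, -0.086 for the regulators and -0.047 for interferon-γ signalling, and with normexp to -0.068 for class I loading. Without both replicates 3 the class II loading median was -0.058. On leaving out each array the median ranged from -0.030 to 0.17 for interferon-γ signalling and from 0.039 to 0.25 for co-stimulation. Of the 13 interferon-stimulated genes, 9 to 12 were higher at an unadjusted p under 0.05 in each alternative, while Iigp1 turned to -0.22 with array weights and -0.32 without both replicates 3, and 8 passed the adjusted threshold with array weights, 2 in the values without scaling and 1 with a random block for slide column.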
